A study of Mus musculus with 9 samples.

Results

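The genes described here are 9 transcription factors that act on the epithelial-mesenchymal transition (EMT): Snai1, Snai2, Twist1, Twist2, Zeb1, Zeb2 and Prrx1, which drive cells towards a mesenchymal state, and Ovol1 and Ovol2, which hold cells in an epithelial state. They were taken by name from a count table of 55450 mouse genes, and all 9 were among the 19357 genes that passed a filter on low counts and were tested. The libraries are bulk RNA-seq of live EYFP+ cells sorted from the mammary glands of adult nulliparous mice, with 3 libraries for each of 3 genotypes. The control genotype was lsl-EYFP;K8CreERT2, the LATS1/2-KO genotype added LATS1/2f/f, and the LATS1/2-Sox9-KO genotype added LATS1/2f/f and Sox9f/f. K8CreERT2 is a tamoxifen-inducible Cre under the promoter of Krt8, a keratin of luminal epithelial cells, and lsl-EYFP marks the cells in which Cre has acted and their progeny. Every mouse, controls included, carried the Cre and the reporter and received 2 mg of tamoxifen on 5 days, and the cells were sorted 7 days after the last dose. The study asked what loss of the Hippo pathway kinases LATS1 and LATS2 does to luminal cells, and what changes when Sox9 is deleted with them.

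The counts assigned to genes ran from 44167762 to 61967651 per library. The labels number the libraries within a genotype but do not say that each came from a separate mouse, so p-values measure only the spread between these libraries. The labels give no sequencing batch or date. The floxed genes were read first as a check of the labels. Lats1 fell from 5850 ± 152 normalized counts (SD, n = 3) in control to 2120 ± 207 in LATS1/2-KO and 1870 ± 176 in LATS1/2-Sox9-KO, with no overlap between control and either deleted group. Lats2 did not fall: it stood at 1040 ± 177, 1470 ± 236 and 1590 ± 359 in the same order. Sox9 stood at 21600 ± 1680, 9710 ± 2620 and 7340 ± 1280, and its difference between the 2 deleted genotypes did not pass the test (log2 fold change -0.40, SE 0.19, edgeR adjusted p = 0.25). Counts over a whole gene can include reads from exons that a deletion leaves, and the deleted exons were not examined, so the groups are named here as their labels give them. Krt8 and Krt18, the keratins that define the sorted lineage, were abundant in every library, with at least 169000 and 240000 normalized counts.

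In EMT, epithelial cells loosen their junctions, lose E-cadherin and other epithelial proteins, and take on motile, mesenchymal features. SNAI and ZEB proteins are zinc finger repressors that bind E-boxes in epithelial genes such as Cdh1, TWIST proteins are basic helix-loop-helix factors, and PRRX1 is a paired-type homeodomain factor. OVOL proteins are zinc finger repressors of EMT genes, ZEB1 among them, and microRNAs of the miR-200 family repress Zeb1 and Zeb2 through sites in their messages, while ZEB proteins in turn repress the miR-200 genes.

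The 5 members of the miR-200 family are shown because they fall into 2 groups by their seed, the stretch that pairs with target messages. Capitals mark the seed, bases 2 to 8, which miR-141 and miR-200a share, as do miR-200b, miR-200c and miR-429. The sequences are from RefSeq on GRCm38.p6 and all lie on the minus strand, at chr6:124717917-124717938 (miR-141), chr4:156054911-156054932 (miR-200a), chr4:156055685-156055706 (miR-200b), chr6:124718324-124718346 (miR-200c) and chr4:156053916-156053937 (miR-429).
mmu-miR-141-3p: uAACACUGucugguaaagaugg
mmu-miR-200a-3p: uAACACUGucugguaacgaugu
mmu-miR-200b-3p: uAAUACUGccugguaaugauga
mmu-miR-200c-3p: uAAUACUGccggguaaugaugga
mmu-miR-429-3p: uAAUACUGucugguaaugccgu
The libraries were made from long RNA and do not measure mature microRNAs. The hairpin genes held from 0 to 9 counts in a library for Mir200b, at most 2 for Mir200c, at most 1 for Mir200a and 0 in every library for Mir141 and Mir429, too few to compare genotypes.

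Short stretches of promoter are shown for the members whose 250 bases before a RefSeq start hold a CACCTG E-box, the site SNAI and ZEB proteins bind, or a CATTCC motif, the site TEAD partners of YAP and TAZ bind. RefSeq promoters of 6 members were searched (Snai1, Twist1, Twist2, Zeb2, Prrx1 and Ovol2), with 9 starts in all. Both strands were searched, and capitals mark the match or its reverse complement. The windows lie at chr2:167538057-167538086 on the plus strand (Snai1), chr1:163313813-163313842 on the minus strand (Prrx1) and chr2:45110417-45110446 on the minus strand (Zeb2, at the start that lies farthest into the gene).
Snai1: gcagcccaggcgCACCTGctccggtctcag
Prrx1: tactactgcaagGGAATGataattagacct
Zeb2: taccgccgtgtgCATTCCctcatacggtca
The first base of the match lay 126 bases before the start in Snai1, 180 in Prrx1 and 157 in Zeb2. CACCTG or its reverse complement was found in 17.2% of 32851 RefSeq promoters of this length, CATTCC in 12.6%, and CCGTTA, a core of the site that OVOL proteins bind, in 2.18% and in none of the 9 windows. A match is a run of letters and not a measured binding site.

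A gene was called higher or lower where its log2 fold change was beyond 1 in either direction with an edgeR adjusted p of at most 0.05. In LATS1/2-KO against control, 6 of the 9 members were called, all of them higher: Zeb1, Zeb2, Twist1, Twist2, Prrx1 and Ovol2. Among all tested genes 34.6% were called in that comparison, 17.1% higher and 17.5% lower, and the median log2 fold change of all genes was 0.04. Of the 7 EMT-driving genes 5 rose, and of the 2 OVOL genes 1 rose, so an antagonist rose beside the factors it is known to oppose. In LATS1/2-Sox9-KO against control, 5 of 9 were called, all higher, where 37.4% of all genes were called, 17.8% higher and 19.6% lower. All 3 libraries of LATS1/2-KO lay above all 3 of control for 6 members and below for 0, as did 31.3% and 30.3% of all genes. In LATS1/2-Sox9-KO against control the counts were 6 above and 0 below, beside 34.9% and 33.8% of all genes. Snai1, Snai2 and Ovol1 were called in neither comparison. Twist1 and Twist2 held at most 4 counts in any control library, so they passed the filter on low counts through the deleted genotypes. A call of lower was out of reach for them, so their direction adds nothing to these counts. Prrx1 held 8, 14 and 7 counts in the control libraries and also passed the filter through the deleted genotypes. Had it fallen in both it would not have been tested, so its direction adds nothing either.

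**Figure D1:**
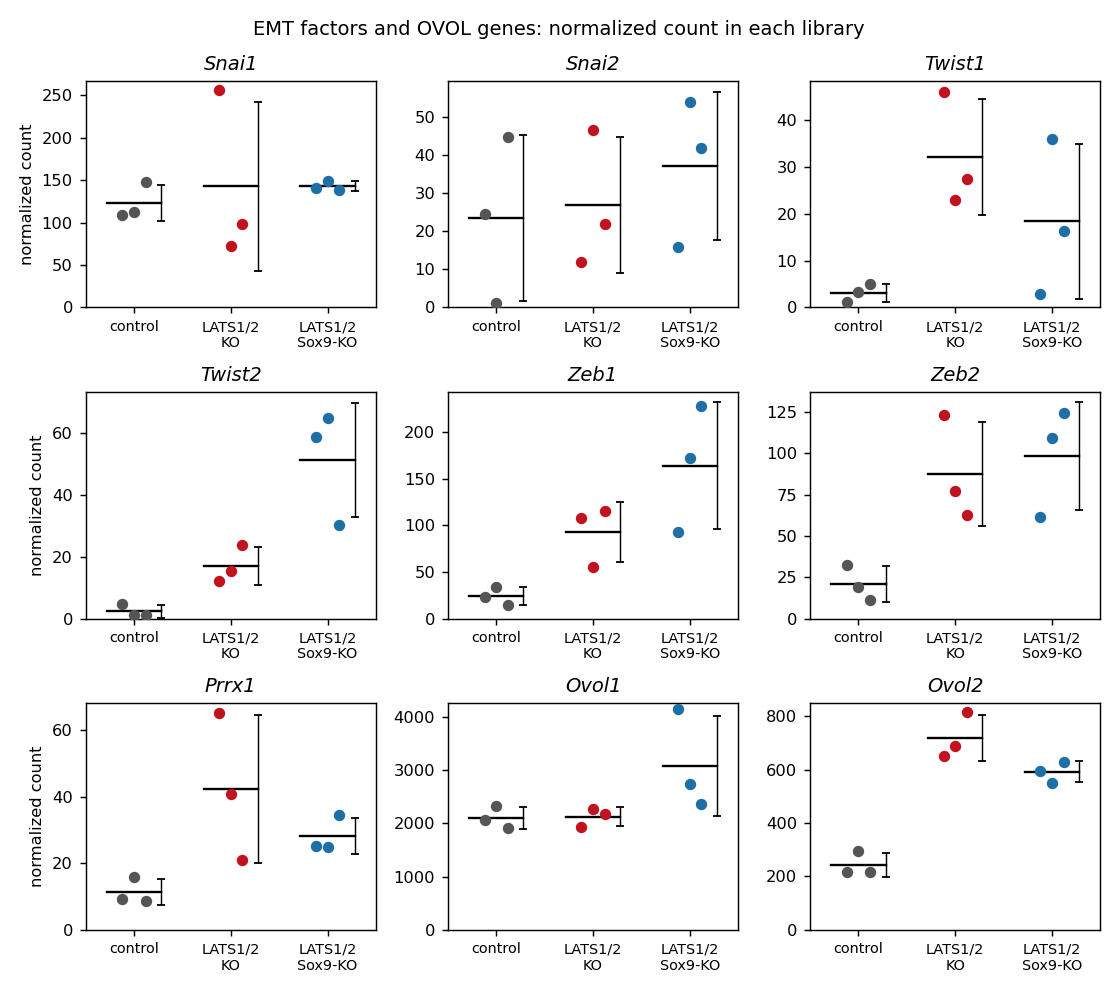
Normalized count of each of the 9 genes (y axis, linear, from 0) in every library, by genotype (x axis). Points are libraries, horizontal lines group means and vertical bars 1 SD (n = 3). The LATS1/2-KO points of Zeb1, Zeb2, Twist1, Twist2, Prrx1 and Ovol2 all lie above the control points.

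In bulk RNA of sorted cells, a higher level in each cell and a larger share of cells that express the gene cannot be told apart. Normalized counts in what follows are counts scaled to the mean effective library size, and compare libraries for one gene, not genes with each other.

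Zeb1 (ENSMUSG00000024238, chr18:5591860-5775467) and Zeb2 (ENSMUSG00000026872, chr2:44983632-45117395) encode the E-box repressors of Cdh1. Zeb1 had 23.2, 34 and 14.9 normalized counts in the control libraries, 108, 55.9 and 115 in LATS1/2-KO, and 92.8, 172 and 228 in LATS1/2-Sox9-KO. Each deleted library was above each control library. Zeb1 rose by a log2 fold change of 1.94 (SE 0.46, 95% interval 0.92 to 2.96, edgeR adjusted p = 0.00534) in LATS1/2-KO and 2.76 (SE 0.46, 1.74 to 3.78, edgeR adjusted p = 0.000667) in LATS1/2-Sox9-KO. Zeb2 had 32.5, 19.3 and 11.2 normalized counts in control, 123, 77.1 and 62.9 in LATS1/2-KO, and 61.3, 109 and 124 in LATS1/2-Sox9-KO. The control libraries again lay below all 6 others. Its log2 fold change was 2.05 (SE 0.47, 1.01 to 3.10, edgeR adjusted p = 0.0045) and 2.21 (SE 0.47, 1.16 to 3.26, edgeR adjusted p = 0.00277). Antisense or opposite-strand transcripts overlap exons of both genes, by 653 bases for Zeb2os and 198 for Gm10125 in Zeb1. Each held at most 4 counts in any library.

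Twist1 (ENSMUSG00000035799, chr12:33957671-33959829) and Twist2 (ENSMUSG00000007805, chr1:91801461-91848028) encode related helix-loop-helix factors of mesoderm and mesenchyme. Twist1 had 1.16, 3.4 and 4.98 normalized counts in control and 46.1, 22.9 and 27.4 in LATS1/2-KO, so that 8 counts in all control libraries stood against 103. The ratio was 10 (95% counting interval 4.9 to 23.8), and the fitted log2 fold change was 3.29 (SE 0.93, 1.21 to 5.37, edgeR adjusted p = 0.0114). In LATS1/2-Sox9-KO the libraries were uneven, at 2.78, 35.9 and 16.4, and replicate 1 lay within the control range. The fitted log2 fold change there was 2.49 (SE 0.94, 0.39 to 4.59, edgeR adjusted p = 0.039). That call was lost in 8 of 16 alternative analyses, and without LATS1/2-Sox9-KO replicate 2 the log2 fold change was 1.59 (edgeR adjusted p = 0.188), the lowest and the least significant of them. Leaving out any of the 3 control libraries, LATS1/2-KO replicate 3 or LATS1/2-Sox9-KO replicate 3 also ended it, and without LATS1/2-Sox9-KO replicate 1 the log2 fold change was 3.01 (edgeR adjusted p = 0.00761).

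Twist2 had 4.64, 1.13 and 1.24 normalized counts in control, 12, 15.3 and 23.7 in LATS1/2-KO, and 58.5, 64.8 and 30.1 in LATS1/2-Sox9-KO. The 3 groups did not overlap, with control lowest and LATS1/2-Sox9-KO highest. Against 6 counts in all control libraries, LATS1/2-KO held 56 (ratio 7.26, counting interval 3.14 to 20.6) and LATS1/2-Sox9-KO held 161 (ratio 21.5, 9.67 to 59.5). Its log2 fold change was 2.79 (SE 0.72, 1.18 to 4.40, edgeR adjusted p = 0.00579) and 4.37 (SE 0.71, 2.79 to 5.96, edgeR adjusted p = 0.000361). Without control replicate 1, which held 4 of the 6 control counts, these values were 3.71 and 5.29. Gm29100 lies antisense to Twist2 over 1477 exon bases and held from 0 to 8 counts in a library. Counting intervals cover counting error only.

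Prrx1 (ENSMUSG00000026586, chr1:163245119-163313710) encodes a homeodomain factor of mesenchymal cells. It had 9.28, 15.9 and 8.71 normalized counts in control, 65.2, 40.7 and 21 in LATS1/2-KO, and 25.1, 24.9 and 34.6 in LATS1/2-Sox9-KO. Both deleted groups lay above control in every library. It passed the test in LATS1/2-KO (log2 fold change 1.89, SE 0.53, 0.71 to 3.07, edgeR adjusted p = 0.0123). In LATS1/2-Sox9-KO the log2 fold change was 1.31 (SE 0.53, 0.12 to 2.50, edgeR adjusted p = 0.057), which missed the threshold, and it crossed it in 3 of 17 alternative analyses.

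Snai1 (ENSMUSG00000042821, chr2:167538195-167542814) and Snai2 (ENSMUSG00000022676, chr16:14705852-14709385) encode the SNAI zinc finger repressors, and Snai2 is known as a factor of basal mammary cells. Snai1 had 109, 112 and 148 normalized counts in control, 256, 72.9 and 98.5 in LATS1/2-KO, and 141, 149 and 138 in LATS1/2-Sox9-KO. Replicate 1 of LATS1/2-KO was the highest of all libraries and the other 2 of its group were the lowest. The log2 fold change in LATS1/2-KO was 0.21 (SE 0.42, -0.74 to 1.15, edgeR adjusted p = 0.702), and it was -0.52 (edgeR adjusted p = 0.133) without that library. In LATS1/2-Sox9-KO it was 0.21 as well (-0.73 to 1.16, edgeR adjusted p = 0.689).

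Snai2 was thinly counted: 24.4, 1.13 and 44.8 normalized counts in control, 12, 46.6 and 21.9 in LATS1/2-KO, and 15.8, 53.8 and 41.9 in LATS1/2-Sox9-KO. The groups overlapped throughout. Fitted log2 fold changes were 0.21 (-1.85 to 2.26, edgeR adjusted p = 0.864) and 0.67 (-1.37 to 2.71, edgeR adjusted p = 0.556). The second was 0.10 without control replicate 2 and 1.55 without control replicate 3. The intervals are wide enough to hold a change as large as that of Zeb1 in LATS1/2-KO, so they do not show that Snai2 kept its level. Libraries of a genotype differed widely, with 21, 1 and 36 counts in control. The ratio of summed counts had a narrower counting interval than the fit, at 1.22 (0.869 to 1.73) in LATS1/2-KO and 1.62 (1.17 to 2.25) in LATS1/2-Sox9-KO. The second interval leaves out 1, but it covers counting error only and not the spread between libraries.

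Ovol1 (ENSMUSG00000024922, chr19:5549136-5560646) and Ovol2 (ENSMUSG00000037279, chr2:144305175-144332146) encode the epithelial-state repressors. Ovol2 had 216, 294 and 215 normalized counts in control, 652, 687 and 817 in LATS1/2-KO, and 594, 550 and 629 in LATS1/2-Sox9-KO. The 3 groups did not overlap, with LATS1/2-KO highest. Ovol2 rose by a log2 fold change of 1.57 (SE 0.18, 1.17 to 1.98, edgeR adjusted p = 7.36e-05) and 1.29 (SE 0.18, 0.88 to 1.70, edgeR adjusted p = 0.000207), the narrowest intervals among the 6 members that rose in LATS1/2-KO. An antisense gene, 1700108N11Rik, shares 359 exon bases with Ovol2 and held at most 12 counts in a library.

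Ovol1 was the most counted of the 9 genes. It had 2060, 2330 and 1920 normalized counts in control and 1930, 2270 and 2180 in LATS1/2-KO, which overlap. Its log2 fold change was 0.02 (SE 0.19, -0.41 to 0.45, edgeR adjusted p = 0.945), an interval that leaves out the change of Ovol2. In LATS1/2-Sox9-KO it had 4150, 2740 and 2370, all above every other library. The log2 fold change of 0.55 (SE 0.19, 0.12 to 0.99, edgeR adjusted p = 0.0318) passed the p threshold but not the fold threshold. Replicate 1 was the highest, and without that library the log2 fold change was 0.30 (edgeR adjusted p = 0.0992). Gm31166 shares 690 exon bases with Ovol1 on the opposite strand and held 9 to 40 counts in a library.

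**Figure D2:**
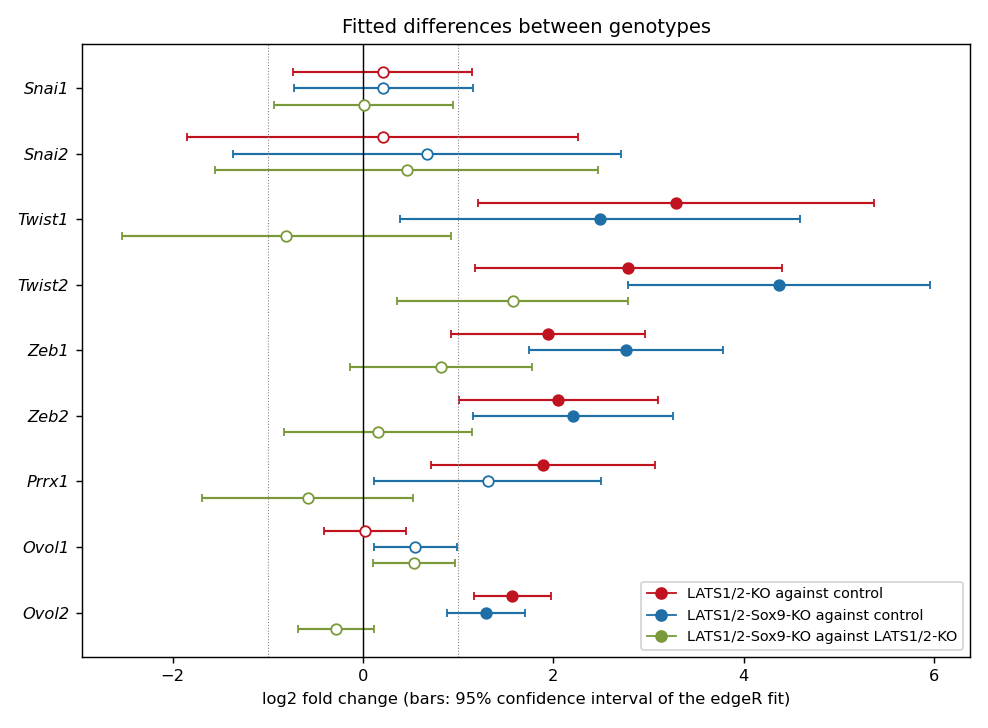
Fitted log2 fold change of each gene (x axis) with its 95% confidence interval for the 3 comparisons (colours). Filled points are called and open points are not, and dotted lines mark a log2 fold change of -1 and 1. Of the members, 6 are called in LATS1/2-KO, 5 in LATS1/2-Sox9-KO, and 0 between the 2 deleted genotypes.

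Deleting Sox9 along with LATS1/2 gave no called member against LATS1/2-KO alone: 0 of 9 by edgeR and 0 by DESeq2, where 3.71% of all genes were called by edgeR, 1.55% higher and 2.16% lower. Before adjustment edgeR gave 2 members a value under 0.05, Twist2 (0.0171) and Ovol1 (0.02). Twist2 was higher in every LATS1/2-Sox9-KO library (log2 fold change 1.58, SE 0.54, 0.36 to 2.79, edgeR adjusted p = 0.123), and so was Ovol1 (0.54, SE 0.19, 0.11 to 0.97, edgeR adjusted p = 0.135). Ovol2 was lower in every one (-0.28, SE 0.18, -0.68 to 0.12, edgeR adjusted p = 0.394). Among all genes, 14.6% had every LATS1/2-Sox9-KO library above every LATS1/2-KO library and 13.3% had every one below. Of the others, Zeb1 (0.82, -0.14 to 1.78), Zeb2 (0.16, -0.83 to 1.15), Snai1 (0.01, -0.93 to 0.95), Snai2 (0.46, -1.55 to 2.47), Twist1 (-0.81, -2.53 to 0.92) and Prrx1 (-0.58, -1.69 to 0.53) had intervals that include 0. All but that of Snai1 also include a log2 change of 1 in one direction, so they do not show that the 2 genotypes are alike. With 1 library left out, these values ran from -1.69 to -0.27 for Twist1, 0.11 to 1.15 for Snai2, 0.53 to 1.13 for Zeb1 and -0.90 to -0.13 for Prrx1. The comparisons of the 2 deleted genotypes with control share the same 3 control libraries and are not independent of each other.

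Levels per exon length show which of these genes the cells held in quantity. In FPKM, which scales counts by library size and by the length of the union of annotated exons, control cells had 11.2 ± 1.11 (SD, n = 3) for Ovol1, 2.12 ± 0.397 for Ovol2 and 1.41 ± 0.249 for Snai1. These 3 kept this order in all 3 genotypes with no overlap between neighbours. The other 6 had mean FPKM of at most 0.367 in any genotype, the value of Twist1 in LATS1/2-KO, and neighbours among them overlapped in each genotype. Zeb1 went from 0.0435 ± 0.0173 FPKM in control to 0.168 ± 0.0585 in LATS1/2-KO and 0.297 ± 0.123 in LATS1/2-Sox9-KO. Even at its highest mean it was far below the level of Ovol2 in the same cells, 5.2 ± 0.35 FPKM.

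**Figure D3:**
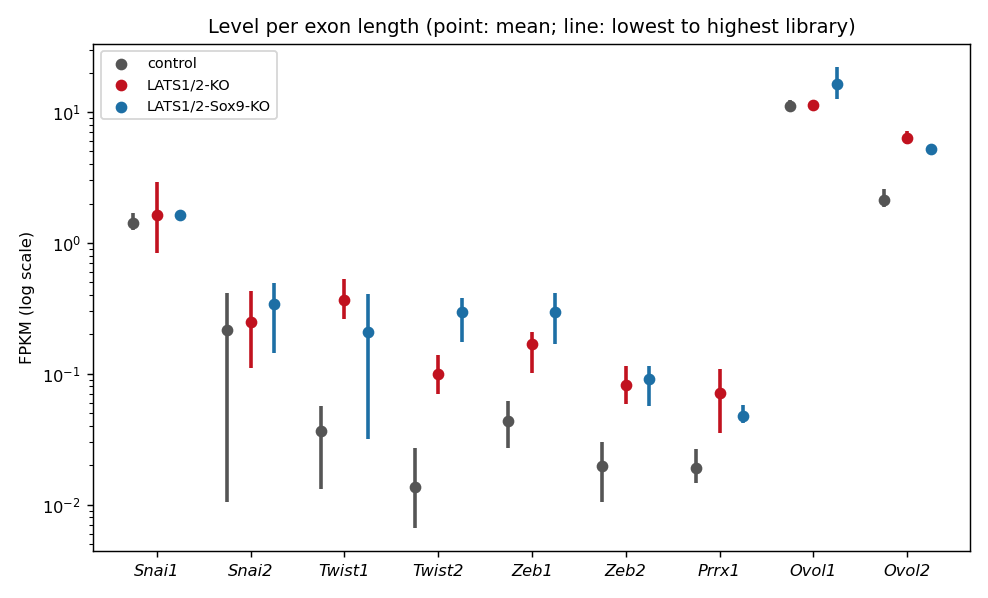
FPKM of each gene on a log axis, by genotype. Points are means of 3 libraries and vertical lines run from the lowest to the highest library. Ovol1, Ovol2 and Snai1 stand above the other 6 genes in all genotypes, with Ovol1 at means of 11.2, 11.3 and 16.4 FPKM.

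Summed over Twist1, Twist2, Zeb1, Zeb2 and Prrx1, the level was 0.116 to 0.152 FPKM in control libraries, 0.592 to 1.02 in LATS1/2-KO and 0.641 to 1.24 in LATS1/2-Sox9-KO. These 5 were summed because their values were known, so the separation from control is a description. With Snai1 and Snai2 added, the 7 EMT-driving genes summed to 1.76 FPKM in control, of which Snai1 held 1.41. Their sum was 0.125, 0.0967 and 0.184 of the level of the 2 OVOL genes in control libraries, 0.253, 0.102 and 0.111 in LATS1/2-KO, and 0.088, 0.177 and 0.16 in LATS1/2-Sox9-KO. The 3 ranges overlap, and LATS1/2-KO replicate 1, the library with the most Snai1, was the highest while the other 2 of its group lay within the control range. Ovol1 was 4.8 to 5.77 times the level of Ovol2 in control libraries, 1.61 to 2 times in LATS1/2-KO and 2.28 to 4.23 times in LATS1/2-Sox9-KO, with no overlap between the 3 groups.

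The genes around these factors were read from lists of regulators, partners and targets. The list of epithelial genes repressed by SNAI and ZEB factors holds Cdh1 and other junction and keratin genes. In LATS1/2-KO against control, 2 of its 34 tested genes rose and 4 fell, with a median log2 fold change of -0.29 beside 0.04 for all genes. Both shares lie below the 17.1% higher and 17.5% lower of all tested genes. Cdh1, which encodes E-cadherin, had 71600, 68000 and 62100 normalized counts in control and 43600, 48300 and 57900 in LATS1/2-KO. It was lower in every library but by less than the fold threshold (log2 fold change -0.43, SE 0.15, edgeR adjusted p = 0.0288), and in LATS1/2-Sox9-KO it was -0.24 (edgeR adjusted p = 0.189). Epcam, an epithelial adhesion protein, stood at -0.74 (edgeR adjusted p = 0.000215), short of the fold threshold, and fell in LATS1/2-Sox9-KO (-1.30, edgeR adjusted p = 6.18e-06).

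The epithelial genes that fell in LATS1/2-KO were Tjp3, a tight junction scaffold (-2.05), Jup, which encodes plakoglobin (-1.38), Krt19 (-1.03) and St14, a membrane serine protease (-1.28), the last named after its value was seen. The call for Krt19 sits at the fold threshold and was lost without control replicate 3 (-0.92) or without LATS1/2-KO replicate 2 (-0.82) or 3 (-0.95). The 2 that rose were Cldn1, a tight junction claudin, and Mal2, an apical transport protein. Cldn1 went from 1110 ± 522 normalized counts in control to 6250 ± 808 in LATS1/2-KO and 21800 ± 4240 in LATS1/2-Sox9-KO, and it also rose between the 2 deleted genotypes (log2 fold change 1.80, SE 0.32, edgeR adjusted p = 0.0152). Krt18, the most counted gene of the list, went from 248000 ± 9150 to 407000 ± 22200 and 716000 ± 75300. In LATS1/2-Sox9-KO against control the list had 5 genes higher and 2 lower, and its median was 0.12. Over all tested genes 17.8% were higher and 19.6% lower there.

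Among mesenchymal genes, 23 of 32 tested genes rose in LATS1/2-KO and 2 fell, with a median log2 fold change of 2.72. The shares over all tested genes were 17.1% higher and 17.5% lower. Lox and Loxl2, and Mmp9 and Thy1, named after their values were seen, held at most 11 counts in any control library. These genes passed the filter on low counts through the deleted genotypes. Had they fallen in both they would not have been tested, so their direction adds nothing to the count. Vim, the intermediate filament vimentin, had 799, 469 and 453 normalized counts in control and 31700, 47800 and 45700 in LATS1/2-KO (log2 fold change 6.18, SE 0.50, edgeR adjusted p = 2.82e-05). In LATS1/2-Sox9-KO it had 4970, 19900 and 28600, lowest in replicate 1, the library that also had little Twist1. Cdh2, which encodes N-cadherin, rose from 124 ± 77.6 to 4560 ± 1500 and 2360 ± 332, and Fn1, fibronectin, from 170 ± 107 to 19300 ± 14700 and 34900 ± 5790. The lysyl oxidases Lox and Loxl2, which crosslink matrix, were nearly without counts in control: 2975 counts against 11 in control for Lox (ratio 210, counting interval 117 to 422) and 668 against 1 for Loxl2 (ratio 520, 93 to 20600). Replicate 1 held 463 of the 668 Loxl2 counts, and the fitted log2 fold change of 8.70 was 7.46 without it and 10.77 without control replicate 3. Without control replicate 3, Lox went from 7.66 to 8.53 and Cdh2 from 5.21 to 5.82, and without LATS1/2-KO replicate 1, Fn1 went from 6.83 to 6.01. Spock1, a matrix proteoglycan, went the other way, with 336, 556 and 52.3 normalized counts in control and 0 in all 6 other libraries, at least 114-fold lower in LATS1/2-KO at a floor of 3 counts per library, or 70.3-fold without control replicate 2. The other gene called lower was Itga5 (-1.01), named after its value was seen. Its call sits at the fold threshold and was lost without any 1 control library, LATS1/2-KO replicate 1 or 2 (-0.68) or LATS1/2-Sox9-KO replicate 3. The list median is also 2.72 with Spock1 at that bound.

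**Figure D4:**
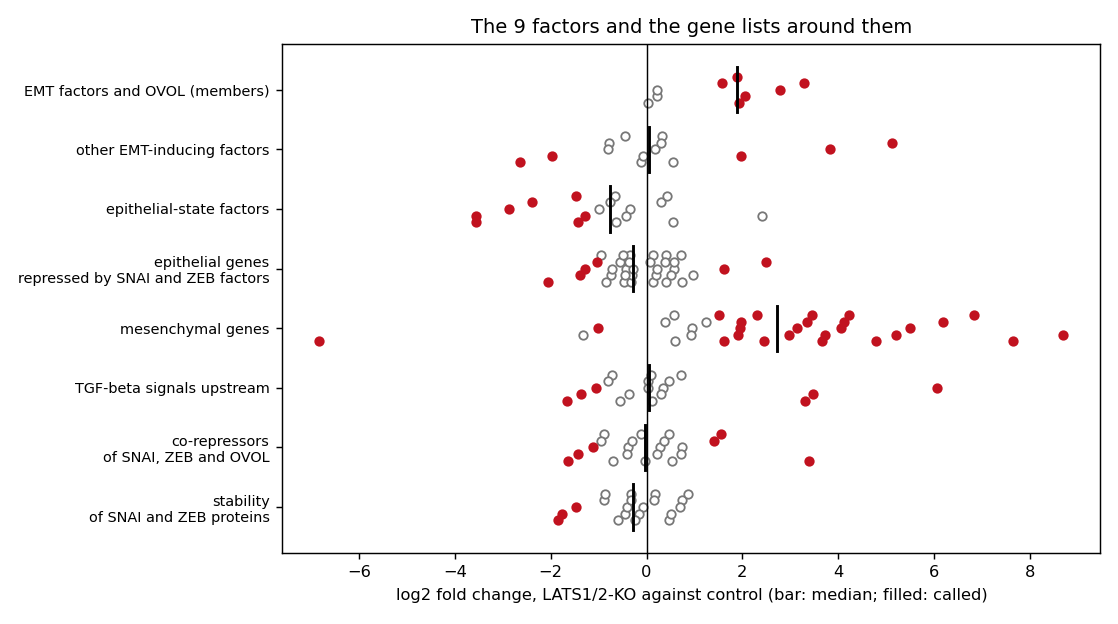
Log2 fold change of each tested gene in LATS1/2-KO against control (x axis), by gene list, with list medians as bars. Filled points are called genes and Spock1 is drawn at its bound of -6.83. The mesenchymal list has 23 genes called higher and the epithelial-state factors have 7 called lower.

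Factors that hold the epithelial or luminal state beside OVOL showed 0 of 17 tested genes higher and 7 lower in LATS1/2-KO, with a median of -0.77. The shares over all tested genes were 17.1% higher and 17.5% lower. Spdef and Elf3, ETS factors of secretory epithelium, fell by 3.57 and 2.87 on the log2 scale. Foxa1 and Gata3, factors of hormone-sensing and luminal cells, fell by 3.56 and 2.39, and Klf4, the most counted of the list, fell by 1.48. Grhl2, a factor known to repress Zeb1, went from 6030 ± 707 to 3030 ± 245 normalized counts, a log2 fold change of -0.99 (edgeR adjusted p = 7.45e-05) that lies at the fold threshold and crossed it in some alternatives. Esrp1, an epithelial splicing factor, stood at 0.42 (edgeR adjusted p = 0.0206), also short of the fold threshold. In LATS1/2-Sox9-KO, where Ovol2 was also called higher, 19.6% of all tested genes fell and 17.8% rose. Of this list, 6 genes fell and 1 rose. That was Grhl3, a grainyhead-like factor of epithelial barrier formation named after its value was seen, at 323 ± 125 normalized counts in control, 398 ± 67.4 in LATS1/2-KO and 817 ± 128 in LATS1/2-Sox9-KO (log2 fold change 1.34, edgeR adjusted p = 0.00283). Ovol3, the third gene of the OVOL family, had too few counts to be tested.

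Of other EMT-inducing factors, 3 of 14 were called higher and 2 lower in LATS1/2-KO, with a median of 0.05. Both shares are near the 17.1% higher and 17.5% lower of all tested genes, so the count says nothing of the list. Prrx2, the relative of Prrx1, had 1.16, 2.27 and 9.96 normalized counts in control, 384, 27.1 and 60.2 in LATS1/2-KO, and 77, 123 and 139 in LATS1/2-Sox9-KO. Its control libraries lay below all others, and LATS1/2-KO replicate 1 was far above its group. The log2 fold change was 5.13 (SE 1.13, edgeR adjusted p = 0.00301), and 3.29 (edgeR adjusted p = 0.00382) without that library or 6.39 without control replicate 3. Tbx3 and Runx1, factors that luminal cells use, fell by 2.65 and 1.98 on the log2 scale. Hmga2, a chromatin protein gene that also rose and was named after its value was seen, had 11.6, 0 and 0 normalized counts in control and 94.3, 66.1 and 12.8 in LATS1/2-KO. Its 186 counts stood against 10, all of them from control replicate 1 (ratio 14.5, counting interval 7.7 to 30.7), and the size of the change rests on that library. Snai3 (-0.44, edgeR adjusted p = 0.594) and Sox4, the most counted of the list (0.17, edgeR adjusted p = 0.641), did not pass.

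Of the TGF-beta signals upstream of EMT factors, 3 of 18 rose and 3 fell, with a median of 0.06. Both shares are close to the 17.1% higher and 17.5% lower of all tested genes, so the count says nothing of the list. Among the ligand genes, Inhba, the activin subunit gene, rose from 164 ± 81.1 to 11000 ± 3350 normalized counts (log2 fold change 6.07), Bmp4 from 198 ± 154 to 2200 ± 713 (3.48, or 4.29 without control replicate 3) and Tgfb2 from 603 ± 344 to 5930 ± 1200 (3.30), while Tgfb1 fell from 2860 ± 412 to 903 ± 321 (-1.66). Tgfbr3 (-1.36) and Smad3 (-1.06), named after their values were seen, were the others that fell. The call for Smad3 sits at the fold threshold and was lost without control replicate 2 (-0.98) or LATS1/2-KO replicate 2 (-0.90). Skil, the most counted of the list, was at -0.37 (edgeR adjusted p = 0.136).

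Of co-repressors that SNAI, ZEB and OVOL proteins recruit, 3 of 21 rose, 3 fell, and the median was -0.03, shares no higher than those of all genes. Ajuba and Wtip, LIM proteins that bind SNAI factors and also LATS kinases, rose by 3.39 and 1.56 on the log2 scale. Ehmt2, a histone H3 lysine methyltransferase, and Smarca4, a chromatin remodelling ATPase, fell by 1.65 and 1.44. Suv39h1 (1.40) and Dnmt1 (-1.12) made up the rest and were named after their values were seen. Among genes that set the stability of SNAI and ZEB proteins, 0 of 20 tested genes rose and 3 fell, with a median of -0.28. Over all tested genes 17.1% rose and 17.5% fell. The share of the list that fell is close to that of all genes, so it says nothing of the list. Btrc and Fbxw11, the F-box proteins that mark SNAI1 for degradation, fell by 1.84 and 1.76, and the third was Lats1 itself. Csnk1a1, the most counted, was at -0.40 (edgeR adjusted p = 0.0107). Protein levels were not measured.

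Twist, Prrx and Zeb genes are also expressed by fibroblasts and other stromal cells, and Zeb2 by macrophages, so markers of these cells were read in every library. Counts of called markers, here and for the lists that follow, stand beside the shares over all tested genes. These were 17.1% higher and 17.5% lower in LATS1/2-KO, and 17.8% higher and 19.6% lower in LATS1/2-Sox9-KO. The 8 fibroblast markers summed to 2080, 3820 and 8600 normalized counts in control, 2310, 714 and 1570 in LATS1/2-KO, and 200, 373 and 886 in LATS1/2-Sox9-KO. The sum ran in the same order of libraries as the 5-gene FPKM sum within LATS1/2-KO, and LATS1/2-KO replicate 1 lay within the control range. In LATS1/2-Sox9-KO, replicate 1 was lowest in both sums. Dcn made up most of the control sum, at 4360 ± 3400 normalized counts, against 923 ± 555 in LATS1/2-KO and 158 ± 152 in LATS1/2-Sox9-KO, where the other markers made up more. It fell in LATS1/2-KO (-2.24, edgeR adjusted p = 0.0429), a call that was lost without control replicate 3 (-1.43, edgeR adjusted p = 0.18) and in other leave-out fits. Without Dcn, the sum was 476 ± 50.9 in control, 606 ± 330 in LATS1/2-KO and 329 ± 205 in LATS1/2-Sox9-KO, with 987 in LATS1/2-KO replicate 1 against 439 to 534 in the control libraries. In LATS1/2-KO 2 of the 8 were called higher, Col15a1 (2.20, or 1.51 without LATS1/2-KO replicate 1) and Lum (2.62, or 1.57 with edgeR adjusted p = 0.182 without that library), the latter named after its value was seen, and 1, Dcn, was called lower. In LATS1/2-Sox9-KO Col15a1 was called higher (1.55), a call lost without control replicate 1 or 2 or LATS1/2-Sox9-KO replicate 3, and Dcn (-4.79, from -5.88 to -3.95 with 1 library left out) and Pdgfra (353 to 87.7 normalized counts, edgeR adjusted p = 0.00606, with log2 fold changes from -2.79 to -1.60 with 1 library left out), named after its value was seen, were called lower. Lum held 3, 5 and 18 counts in the control libraries and passed the filter on low counts through the deleted genotypes. Had it fallen in both it would not have been tested. None of the 8 was at 0 in every library.

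Of the 6 macrophage and myeloid markers, Csf1r was called higher in LATS1/2-KO, Csf1r and Adgre1 were called higher in LATS1/2-Sox9-KO, and the list summed to 1110, 781 and 733 normalized counts in control, 4340, 3080 and 2090 in LATS1/2-KO, and 3520, 3730 and 4800 in LATS1/2-Sox9-KO. Csf1r, the most counted, took most of that difference, at 158 ± 43, 2310 ± 529 and 3240 ± 588. Without it the sum was 718 ± 166, 859 ± 614 and 779 ± 157, most of it Lyz2 and Cd68. Adgre1, the macrophage marker F4/80, named after its value was seen, had 5.8, 1.13 and 19.9 normalized counts in control, 65.2, 29.7 and 6.38 in LATS1/2-KO, and 51.1, 33.9 and 88.4 in LATS1/2-Sox9-KO. Its log2 fold change was 1.91 (edgeR adjusted p = 0.115) in LATS1/2-KO and 2.69 (edgeR adjusted p = 0.0348) in LATS1/2-Sox9-KO. The call in LATS1/2-Sox9-KO was lost without control replicate 1 or 2 or LATS1/2-Sox9-KO replicate 1 or 3 (edgeR adjusted p up to 0.106), and its value ran from 2.17 to 4.03. In LATS1/2-KO the value was 1.03 (edgeR adjusted p = 0.39) without replicate 1, and a call was gained without control replicate 3 (3.22) or LATS1/2-KO replicate 3 (2.41). Ptprc, the pan-leukocyte marker, had 40.6, 55.6 and 17.4 in control, 166, 34.7 and 10.9 in LATS1/2-KO, and 84.5, 29.9 and 107 in LATS1/2-Sox9-KO, highest in LATS1/2-KO replicate 1, the library with the most Snai1, Twist1, Zeb2, Prrx1 and Prrx2 of its group. Of the 6 lymphocyte markers, Cd3e and Ms4a1 were at 0 in every library, 0 were called, and the sum was led by Cd79a and at most 63.5.

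**Figure D5:**
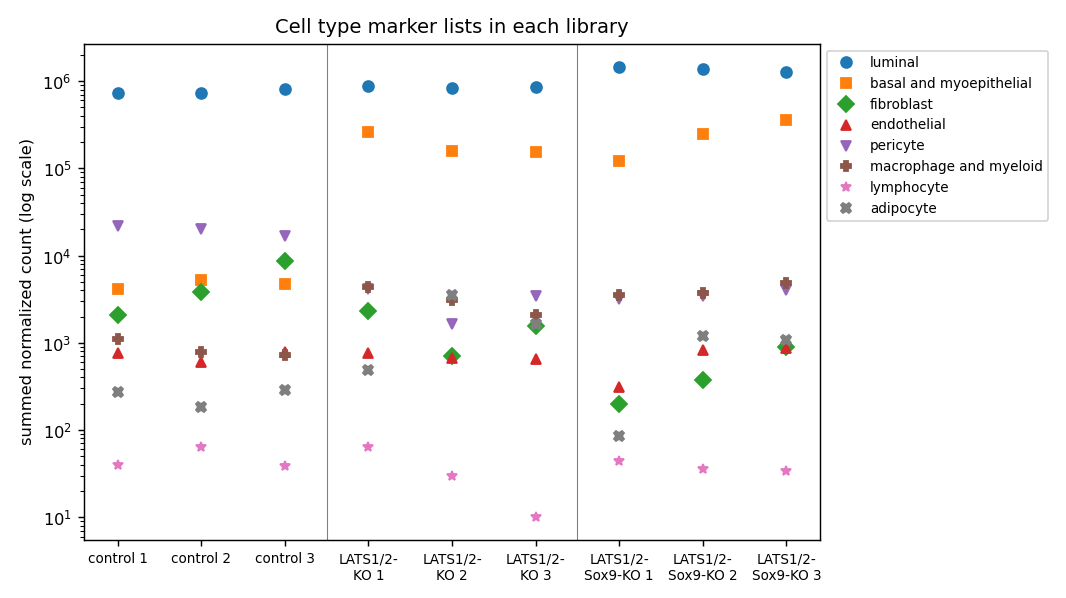
Summed normalized count of each cell type marker list (y axis, log scale) in every library (x axis, grouped by genotype). Luminal markers lead in all libraries. The fibroblast sum is lower, and the macrophage and myeloid sum higher, in the deleted genotypes than in control, apart from LATS1/2-KO replicate 1, whose fibroblast sum of 2310 lies within the control range.

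The 6 endothelial markers summed to 713 ± 97.2, 692 ± 54.4 and 671 ± 309 normalized counts in control, LATS1/2-KO and LATS1/2-Sox9-KO. Pecam1 led them, Kdr was called higher (2.43) and Egfl7 lower (-1.47) in LATS1/2-KO. The 4 pericyte markers summed to 19600 ± 2570, 3070 ± 1300 and 3540 ± 411, nearly all of it Notch3, at 19500 ± 2600 in control. Without Notch3 the sum was 149 ± 43.1, 63.2 ± 35.6 and 37.6 ± 19.9. In LATS1/2-KO Notch3 (-2.70) and Rgs5 (-2.28) were called lower. Cspg4, named after its value was seen, was called higher, with at most 6 counts in any control library. The 5 adipocyte markers, led by Fabp4, summed to 273, 184 and 289 in control, 484, 3500 and 1640 in LATS1/2-KO and 86.3, 1210 and 1080 in LATS1/2-Sox9-KO. Cidec and Adipoq were close to 0 in control and in replicate 1 of both deleted genotypes, and 4 of the 5 were called higher in LATS1/2-KO. Cidec, Adipoq and Lep, the last named after its value was seen, held at most 3 counts in any control library. They passed the filter on low counts through the deleted genotypes, so a call of lower was out of reach for them. The calls for Kdr and for 3 adipocyte markers depended on single libraries. That of Kdr was lost without LATS1/2-KO replicate 3 (edgeR adjusted p = 0.0598) and its value was 3.06 without control replicate 3. The calls were also lost for Cidec (0.0539) and Adipoq (0.0511) without control replicate 2, and for Fabp4 without any 1 control library or without LATS1/2-KO replicate 2 (0.121). The part of these cells in the EMT factor levels was not tested.

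The 7 basal and myoepithelial markers summed to 4720 ± 611, 191000 ± 62400 and 242000 ± 117000 normalized counts, nearly all of it Krt14 in the deleted genotypes. In LATS1/2-KO 3 were higher and 2 lower: Krt14 (8.04) and Acta2 (3.72) rose, and Trp63 (-4.82), which encodes the basal factor p63, and Myh11 (-2.22) fell. Krt5, a basal keratin named after its value was seen, had 466 ± 104 normalized counts in control and 486 ± 249 in LATS1/2-KO, and was not called there. It had 1400 ± 858 in LATS1/2-Sox9-KO, where 3 of the 7 markers were called higher and 3 lower. The 5 luminal markers, led by Krt18, summed to 758000 ± 52600, 861000 ± 23300 and 1370000 ± 99300, with 1 called lower in LATS1/2-KO, Krt19.

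LATS1/2-KO replicate 1 was the least like the rest of its group (mean Pearson correlation of log2 CPM with the other 2 of 0.959, against 0.969 and 0.97 for them). Without it 6 members were still called in LATS1/2-KO against control, and in LATS1/2-Sox9-KO against control the count was 6. Twist1 had a log2 fold change in LATS1/2-KO of 2.95 (edgeR adjusted p = 0.0291) and Prrx1 of 1.44 (edgeR adjusted p = 0.0386) without that library.

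Patterns over the 9 libraries were compared as a description, over 12155 genes with established symbols and at least 100 normalized counts in a genotype. The libraries share genotype, so a correlation takes in the step from control to the deleted groups and gets no p-value. The genes most like Ovol2 in log2 CPM were Lmnb1 (r = 0.995), which encodes lamin B1, Mms22l (0.991) and Mcm7 (0.991), a replication helicase subunit. Lmnb1 had 1040 ± 247 normalized counts in control, 4840 ± 783 in LATS1/2-KO and 3950 ± 194 in LATS1/2-Sox9-KO. Ovol1 was most like Samhd1 (0.979), Daxx (0.963) and Tor3a (0.947), with Samhd1 at 15700, 10900 and 9320 in LATS1/2-Sox9-KO, in the same order of libraries as Ovol1.

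Zeb1 was most like Coch (0.983), Tfrc (0.975), the transferrin receptor gene, and Ncam1 (0.970), a neural cell adhesion molecule with 128 ± 54.7, 702 ± 266 and 990 ± 535 normalized counts. Zeb2 was most like Rad51b (0.981), Zfp146 (0.977) and Usp9x (0.976). Twist1 was most like Pdgfd (0.973), a PDGF ligand gene that was low in the same LATS1/2-Sox9-KO library, with 57.6, 317 and 217 normalized counts there, then Fbp2 (0.962) and Wdr35 (0.949). Twist2 was most like Stx8 (0.990), Abhd17a (0.985) and Kars (0.982).

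Prrx1 was most like C1qc (0.958), a complement gene of macrophages, then Edn2 (0.954) and Nufip2 (0.950). C1qc had 6.96, 14.7 and 9.96 normalized counts in control, 274, 101 and 38.3 in LATS1/2-KO, and 103, 48.8 and 157 in LATS1/2-Sox9-KO. All 6 libraries of the deleted genotypes lay above control, a pattern that is given with no test because likeness to Prrx1 chose the gene, and what part such cells have in the Prrx1 level was not tested. Snai1 was most like Ints2 (0.947), Zscan20 (0.942) and Plek2 (0.938), and Snai2 like Cox6a1 (0.905), Cisd1 (0.891) and Ndufa5 (0.889). Among the members themselves, Zeb1 and Zeb2 were the most alike (0.90), and Ovol2 followed Zeb1 (0.85), Zeb2 (0.84) and Prrx1 (0.82) more closely than it followed Ovol1 (0.31).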

How the data were processed

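The data were RNA-seq counts from 9 libraries, 3 for each genotype. Per the paper's methods and the labels, the authors aligned reads to mm10 with STAR 2.6.0c, used featureCounts (Subread 1.6.2) to count properly paired, uniquely mapped reads on Ensembl genes, left out mitochondrial genes and deposited raw counts for each library. The methods state same-strand counting, while the named library kit does not mark strand, so reads of a gene and of an overlapping antisense gene may not be told apart.

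Genes were filtered with filterByExpr, scaled by TMM and fitted with the quasi-likelihood test of edgeR 4.0.16 (R 4.3.3) over all 9 libraries, with Benjamini-Hochberg adjustment across 19357 genes. DESeq2 1.42.0, other scalings, filters and thresholds, a replicate block and leaving out each library were alternatives. An exact two-sided permutation test of 3 against 3 cannot give a p below 0.1. FPKM used exon lengths of GENCODE on GRCm38, the same assembly as mm10. Counting intervals are 95% exact binomial intervals.

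The members and lists were chosen with earlier results of these data known. Named from each list were up to 4 called genes with the largest change in LATS1/2-KO and at least 100 normalized counts, its most counted gene, a few fixed genes, and for each member the 3 most correlated genes. No 2 libraries of a group agreed within sampling noise (chi-square per gene from 12.8 to 102). Some genes of the lists are not reported here.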

Additional observations from a re-analysis of the deposited data

How the results depend on the processing

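In LATS1/2-KO against control, 6 members were called under every scaling, tool and leave-out fit, 4 when a fold change of 2 was tested itself (glmTreat), and 2 with a minimum of 10 counts in every library, a filter that removes most of these genes from the test. In LATS1/2-Sox9-KO against control the 5 calls became 3 under glmTreat and 2 under that filter, and ran from 4 to 6 with 1 library left out. Between the deleted genotypes 0 were called in each alternative. Replicate numbers did not pair the libraries (correlations of deviations from -0.07 to 0.17), and the replicate block gave 6, 4 and 0 calls, with Twist1 in LATS1/2-Sox9-KO at 2.33 (edgeR adjusted p = 0.0783). With the longest transcript as gene length, 8 of 27 ranks by FPKM moved. Genes that were not called changed sign near 0. Ovol1 in LATS1/2-KO was at -0.02 with DESeq2 and with RLE scaling, and from -0.06 to 0.10 in leave-out fits. Snai1 between the deleted genotypes was at -0.05 with upper-quartile scaling and -0.01 with the stricter filter, and from -0.28 to 0.74 in leave-out fits. Leave-out fits ran from -0.52 to 0.51 for Snai1 and -0.46 to 1.07 for Snai2 in LATS1/2-KO, and from -0.03 to 0.48 for Zeb2 between the deleted genotypes. They ran from -1.12 to 0.16 for Snai3 in LATS1/2-KO, and from -0.09 to 0.96 for Snai3 and -0.02 to 0.08 for Esrp1 in LATS1/2-Sox9-KO. Depth limits Twist1 and Twist2 most, with 8 and 6 counts in the 3 control libraries together.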
